A study of Mus musculus with 3 samples.

Results

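B lymphocyte nuclei were examined in single-nucleus RNA sequencing of mouse dorsal root ganglia (DRG), which hold the cell bodies of sensory neurons. Members were selected on measured UMIs (unique molecular identifiers, each 1 captured transcript): a nucleus was chosen when it held at least 3 UMIs summed over the 6 genes Cd79a, Cd79b, Ms4a1, Bank1, Pax5 and Blk, from at least 2 of them, and when this sum was at least 2 times the UMIs of 7 genes of neurons, glia, macrophages and T cells (Snap25, Scn9a, Prx, Bcan, Csf1r, Themis and Skap1). This gave 241 nuclei of the 19259 that had more than 1000 genes, and they are called B gated nuclei here. Of these, 155 came from the adult library, 64 from the first aged library (aged 1) and 22 from the second (aged 2), and values are given in this order.

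The libraries were made by PIP-seq, a droplet method without microfluidics, from lumbar DRG of wild-type C57BL/6 mice. There was 1 library of adult mice aged 3 months and there were 2 libraries of aged mice aged 21 months, with no other treatment or allele. These ages are those of the sample labels, while the series' design text gives a younger age for the aged mice. The number of mice in a library was not given. With only 1 adult library, age cannot be told apart from what is particular to that library, and tests measure only the spread between the aged libraries. All 3 libraries were labelled male, but Xist, the RNA that silences an X chromosome in females, had 1230, 391 and 94 UMIs in B gated nuclei, against 6, 4 and 1 UMIs of 4 Y-linked genes together. The same held over all kept nuclei (Xist at 1414, 844 and 929 CPM, the gene's UMIs scaled to a common library total of UMIs, the Y-linked genes at 24.4, 14.9 and 9.22 CPM), so the data went against the label in each library, and the study's methods describe the aged mice as female.

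B lymphocytes make antibodies. On their surface an immunoglobulin joined to Cd79a and Cd79b forms the B cell receptor, and kinases such as Blk, Lyn, Syk and Btk pass its signal on through the adaptor Blnk. The transcription factors Ebf1 and Pax5 set up and keep B cell identity, and naive mature cells carry IgM and IgD with a kappa or a lambda light chain. B-1 cells are a self-renewing branch known from body cavities, and age-associated B cells are a subset described in old mice. B cells are described as rare in the healthy ganglion, with resident macrophages as most of its immune cells. In the adult library here B gated nuclei outnumbered macrophage gated ones, as given below. The gates use different genes, and whether they find their cells equally well was not tested, so these counts do not give cell abundance.

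B gated nuclei were shallow. Their median UMI number was 2517 in adult nuclei, 2456.5 in aged 1 and 2630 in aged 2, against 3269, 4317.5 and 4900 in all kept nuclei. Their medians of genes were 1577, 1530 and 1546.5. Summed UMIs came to 456353, 183329 and 62986, so that a count of 0 allowed a level of up to 6.57, 16.4 and 47.6 CPM (3 counts, counting error only). No B gated barcode recurred among the kept nuclei of another library, where 2 kept barcodes were shared in all. None was T or macrophage gated as well, while 7 adult nuclei also passed the gate of the neurons used as background below.

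The gate itself gives these values, which are a description. The median sum over the 6 gate genes was 11 UMIs in adult nuclei, 17.5 in aged 1 and 19.5 in aged 2, and 14, 9 and 3 nuclei held all 6 genes. Bank1, a scaffold in B cell receptor signalling, was the most abundant gate gene, with 1808, 4102 and 3572 CPM. Pax5 followed with 971, 1015 and 1762 CPM. Cd79a stood at 338, 344 and 175 CPM. Just inside the threshold lay 4, 3 and 0 nuclei with a sum of 3, and just outside it 4, 1 and 0 nuclei with a sum of 2 from 2 genes. The ratio to the other cell types' genes removed 100, 19 and 13 further nuclei that had passed on the gate genes.

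Genes outside the gate fitted the B cell name. The genes leading B gated over all other kept nuclei, given without a test since the gate chose the cells, included Ighd, the IgD heavy chain, at 577 CPM ± 211 (SD over the 3 libraries) against 1.12 CPM. Siglecg, an inhibitory receptor of B cells, stood at 514 CPM ± 121 against 1.02 CPM. The transcription factors Spib (103 CPM against 0.288 CPM), Pou2af1 (216 CPM against 0.757 CPM) and Ikzf3 (1088 CPM against 3.82 CPM) were among the 15 leading genes, as were the lambda constant genes Iglc2 and Iglc3, Fcmr (the IgM receptor), H2-Ob, Ly6d, Cd2 and Il5ra. Ebf1 was high in B gated nuclei (4090 CPM ± 925) but only 2.95-fold above the rest, because other DRG nuclei held it at 1385 CPM.

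Defining genes of other immune cells were scarce. Cd3e and Cd3g, chains of the T cell receptor complex, had no UMI in any B gated nucleus. The gate ratio itself holds down Themis, Skap1 and Csf1r, so these are left out of the sums here. Over the other 9 genes of the T cell list the sums were 13, 4 and 0 UMIs (28.5, 21.8 and 0 CPM), with 5, 7 and 9 genes at 0. Over the other 8 macrophage genes they were 69, 39 and 10 UMIs (151, 213 and 159 CPM), with 0, 2 and 4 genes at 0. Glial genes were not scarce, as described next.

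RNA of glia stood out in adult nuclei. Over 50 genes that lead glial nuclei of these libraries over T and macrophage gated nuclei, a set made after the data had been seen, the share of a nucleus' UMIs had a median of 0.296% in adult nuclei, 0.0582% in aged 1 and 0.0538% in aged 2. More than 1% was reached by 56 of 155 adult nuclei (36.1%, 95% exact interval 28.6 to 44.2), 3 of 64 in aged 1 (4.69%, 0.977 to 13.1) and 1 of 22 in aged 2 (4.55%, 0.115 to 22.8). In the adult library the nuclei above 1% were larger, with a median of 3777.5 UMIs against 1865. Their median of gate UMIs, which the gate itself holds at 3 or more, was 9 against 12. Between 0.5% and 2% lay 12, 6 and 0 nuclei. The 50 genes include Prx and Bcan, which the gate ratio holds down, and without them the same numbers of nuclei, 56, 3 and 1, lay above 1%. The 50 genes were chosen on sums that pool the libraries. Most glial nuclei were adult and most T and macrophage gated nuclei aged, so genes lower with age could enter the set more easily. Because the glial share differs between the libraries, the share of B gated nuclei and the counts of genes called below are also given without the nuclei above 1%, an alternative chosen after seeing the data.

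**Figure D1:**
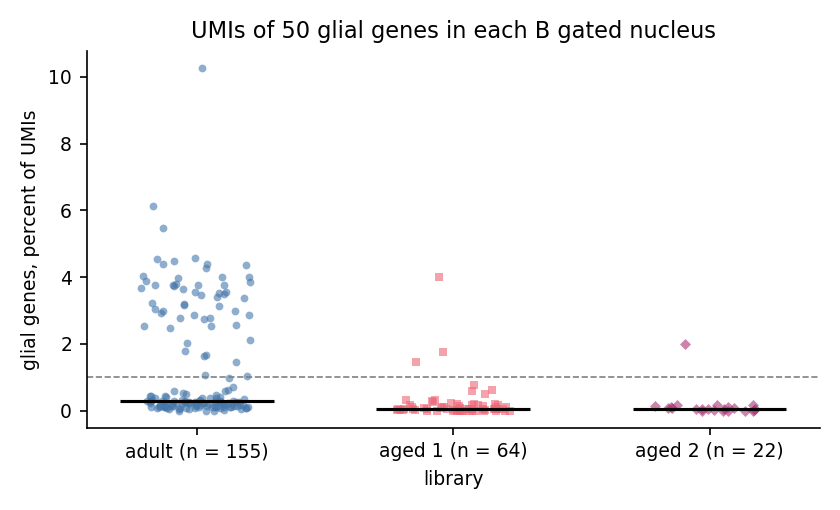
Each point is 1 B gated nucleus, with the percent of its UMIs from 50 glial genes on the vertical axis and the library on the horizontal axis. Black bars are medians and the dashed line marks 1%, which 56 adult nuclei exceeded against 3 and 1 in the aged libraries.

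The question of how common B cells are in the ganglion at each age was addressed by the share of B gated nuclei. It was 1.35% (155 of 11518; 95% exact Clopper-Pearson interval 1.14 to 1.57) in adult nuclei, 1.25% (64 of 5130; 0.962 to 1.59) in aged 1 and 0.843% (22 of 2611; 0.529 to 1.27) in aged 2. The intervals overlap in every pair, and the aged mean of 1.05% ± 0.286 (SD, n = 2) was 0.777 times the adult value (two-sided exact permutation p = 0.667, where the smallest p this design allows is 0.333). Without the nuclei above 1% glial UMIs the direction turned, with 0.86%, 1.19% and 0.804% of kept nuclei and a ratio of 1.16.

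T and macrophage gated nuclei had larger ratios of aged to adult share, 2.50 and 5.72. T gated nuclei made up 0.287%, 0.702% and 0.728%, and macrophage gated nuclei 0.642%, 2.98% and 4.37%, each with an exact permutation p of 0.333. B gated nuclei were therefore 59.2% (95% exact interval 52.9 to 65.2) of B, T and macrophage gated nuclei together in adult nuclei, 25.3% (20.1 to 31.1) in aged 1 and 14.2% (9.11 to 20.7) in aged 2. There were 2.1 B gated nuclei for each macrophage gated nucleus in adult nuclei, and 0.418 and 0.193 in the aged libraries. These are ratios of gated nuclei, and whether the gates find their cells equally well was not tested. Without the nuclei above 1% glial UMIs the B share of the 3 classes was 48.1%, 24.4% and 13.6%, and the ratio to macrophage gated nuclei 1.34, 0.399 and 0.184.

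**Figure D2:**
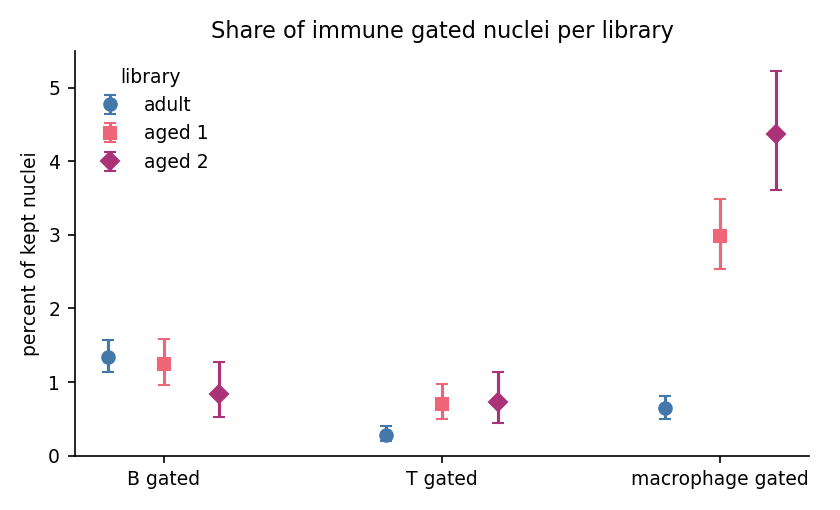
Percent of kept nuclei that were B, T or macrophage gated in each library, with 95% exact binomial intervals. B gated nuclei stayed between 0.843% and 1.35%, while macrophage gated nuclei went from 0.642% in adult nuclei to 2.98% and 4.37% in the aged libraries.

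Gene expression in B gated nuclei was then compared by age on UMIs summed per library. Il5ra, Fcrl5, Ptpn22 and Cd80 were among the genes higher in the aged libraries, and Ctnnd2 and many genes of glia were among those lower. Of 6109 genes tested with the edgeR quasi-likelihood test, 401 (6.56%) passed an adjusted p of 0.05, with 87 higher (1.42%) and 314 lower (5.14%) in aged nuclei. Without the nuclei above 1% glial UMIs, 125 of 5457 genes passed, 39 higher and 86 lower, of which 36 and 71 were among the first calls. With the DESeq2 Wald test 31 passed, 7 higher and 24 lower. The test has 1 residual degree of freedom.

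Il5ra, the alpha chain of the interleukin-5 receptor (chromosome 6, 106710357 to 106749037, GRCm38), had 19.7 CPM in adult nuclei, 453 CPM in aged 1 and 318 CPM in aged 2. The log2 fold change was 4.16 (SE 0.63, edgeR adjusted p = 2.08e-08), and 3.46 (SE 0.62, adjusted p = 1.43e-05) without the nuclei above 1% glial UMIs. Nuclei with an Il5ra UMI were 5.16%, 40.6% and 22.7%, or 3.23%, 29.7% and 22.7% after thinning each nucleus to 1000 UMIs. In neuron gated nuclei, deeper at medians of 4003, 4829.5 and 5932 UMIs, the shares were 0.65%, 0.713% and 0.783%.

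Fcrl5, an Fc receptor-like protein of B-1 and marginal zone B cells (chromosome 3, 87435773 to 87500678), moved the same way. It stood at 50.4 CPM in adult nuclei against 453 and 238 CPM in the aged libraries (log2 fold change 2.70, SE 0.56, edgeR adjusted p = 7.25e-05). Both aged libraries lay above the adult one. Without the nuclei above 1% glial UMIs the log2 fold change was 2.13 (SE 0.56, adjusted p = 0.00985).

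For signalling and activation, 5 more genes that rose are given, where 1.42% of all genes rose. They were chosen after their values were seen and from no fixed list, so their number is not a result. Ptpn22, a phosphatase that restrains antigen receptor signals, went from 85.5 CPM to 1091 and 492 CPM (log2 fold change 3.13, edgeR adjusted p = 5.24e-08). Nfatc1, a calcium-regulated transcription factor, went from 101 CPM to 573 and 508 CPM (2.29, adjusted p = 0.000156), and Cd80, a costimulatory ligand for T cells, from 21.9 CPM to 196 and 143 CPM (2.84, adjusted p = 0.000953). Cd38, an ectoenzyme of NAD, went from 81.1 CPM to 365 and 572 CPM (2.33, adjusted p = 0.00027). The voltage-gated calcium channel gene Cacna1e went from 245 CPM to 1909 and 1413 CPM (2.63, adjusted p = 2.27e-07). All of these kept an adjusted p under 0.05 without the nuclei above 1% glial UMIs, with Cd80 the weakest at 0.0224. Other alternatives were less kind to the named and listed genes past the threshold as a whole. With the DESeq2 Wald test 9 kept their call and 40 did not, and with more than 2000 genes per nucleus 1 did and 33 did not.

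Nopchap1, a chaperone of small nucleolar ribonucleoprotein assembly, also chosen after its values were seen, stood at 46 CPM in adult nuclei against 938 and 365 CPM in the aged libraries. The zinc finger gene Zfp811 stood at 19.7 CPM against 475 and 222 CPM. In aged 1, 25 of its 87 UMIs came from 1 nucleus, and in aged 2, 11 of its 14 UMIs did, so the aged 2 level rests largely on 1 nucleus. Free RNA, taken from barcodes of 100 or fewer UMIs, held Zfp811 at 12.9, 7.76 and 7.27 CPM and Nopchap1 at 34, 37.3 and 36.7 CPM. The part of free RNA in the B gated values was not tested.

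Further genes chosen after their values were seen moved alike. Sox5, a transcription factor of chondrocytes and B cell subsets, went from 478 CPM to 2166 and 1334 CPM (log2 fold change 1.75, edgeR adjusted p = 0.000526), and Cd2, an adhesion receptor of lymphocytes, from 59.2 CPM to 393 and 206 CPM (2.27, adjusted p = 0.0015). Nr3c2, the mineralocorticoid receptor, went from 167 CPM to 867 and 508 CPM (1.95, adjusted p = 0.000713). Calcrl, a receptor subunit for CGRP and adrenomedullin, went from 19.7 CPM to 191 and 206 CPM (3.15, adjusted p = 0.000179). In all 4 both aged libraries lay above the adult one. Their values without the nuclei above 1% glial UMIs are not given here. Of the named and listed genes past the threshold, 30 kept their call under that setting and 11 lost it.

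Several of the largest fold changes rested on very few adult UMIs. Genes this low in the adult library were tested only because a count in an aged library was high enough, and a ranking by fold change favours them. 1810046K07Rik (chromosome 9, 51289686 to 51328917), which lies next to Pou2af1 (51213708 to 51240080), the B cell coactivator of octamer-binding factors, had 3, 51 and 7 UMIs, and the pooled aged level was 35.8 times the adult one (95% counting interval 11.7 to 179). In aged 2 all 7 of those UMIs came from 1 nucleus, against 17 nuclei in aged 1. Gm2447 had 2, 20 and 8 UMIs, Gm30382 4, 43 and 7, and Gm15228 4, 44 and 3. ENSMUSG00000079190 and ENSMUSG00000079222, listed by identifier alone, had 1, 37 and 14 and 1, 22 and 6 UMIs. Both were also higher outside B gated nuclei in the aged libraries. Free RNA held them at 0.524, 5.53 and 5.3 CPM and at 0.35, 2.15 and 2.1 CPM. Neuron gated nuclei with a UMI were 0.152%, 2.08% and 2.13%, and 0.401%, 1.07% and 2.52%. In 1810046K07Rik and Gm2447 free RNA was lower in both aged libraries. The part of free RNA in these values was not tested. Tnfsf8, the ligand of Cd30, had 0, 21 and 2 UMIs, at least 14.2-fold higher in the pooled aged libraries against a floor of 3 counts in adult nuclei, and the channel gene Kcnj5 had 0, 19 and 3, at least 13.6-fold higher. These bounds rest mostly on aged 1, since for aged 2 alone they were 4.83 for Tnfsf8 and 7.25 for Kcnj5, against 17.4 and 15.8 for aged 1 alone. Both genes passed the filter on low counts through aged 1 alone, so the bounds are a description. With the nuclei above 1% glial UMIs left out, the adult counts stayed at 0 and the aged ones were 20 and 2 for Tnfsf8 and 19 and 3 for Kcnj5, with edgeR adjusted p = 0.1 and 0.0804.

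The promoter of 1810046K07Rik is shown because it is the only one that held the octamer ATGCAAAT on either strand, the letters that the partners of Pou2af1 bind. The search covered the promoters of the 18 genes found in the RefSeq promoter table, of 33 gate, leading and age-higher genes. The table lists 2 promoters for 1810046K07Rik, and the other held no octamer. Over the whole table the octamer was in 1.74% of the 32851 promoters, each 300 bases long, and in 1.97% of the genes. A palindromic motif of EBF1, also searched on both strands, was in 0.904% of the promoters and in those of none of the 18 genes. The sequence is from GRCm38.p6, chr9:51328869-51329168, minus strand, with the 2 octamers in capitals starting at bases 165 and 196.
1810046K07Rik: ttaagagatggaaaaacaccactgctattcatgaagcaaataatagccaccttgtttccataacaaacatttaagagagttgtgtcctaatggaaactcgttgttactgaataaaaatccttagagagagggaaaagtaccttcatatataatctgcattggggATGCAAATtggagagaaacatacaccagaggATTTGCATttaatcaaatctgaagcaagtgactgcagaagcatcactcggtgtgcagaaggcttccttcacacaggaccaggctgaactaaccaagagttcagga

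Several of the genes higher in aged nuclei lay in the same nuclei. Nuclei with a Fcrl5 UMI, a set chosen after the data had been seen and given without a test, were 13 of 155, 27 of 64 and 7 of 22, and they held 10.8%, 53.7% and 32.8% of all B gated UMIs. In aged 1 these nuclei held 81.9% of the Il5ra UMIs, 82.6% of those of Nopchap1, 87.4% of Zfp811, 73.0% of Ptpn22 and 74.6% of Cacna1e. In aged 2 they held all 20 Il5ra UMIs, 65.2% of Nopchap1, 92.9% of Zfp811, 61.3% of Ptpn22 and 62.9% of Cacna1e. For Zfp811 in aged 2 these were 13 of 14 UMIs, 11 of them in 1 nucleus. In the aged libraries they held less than their share of UMIs of Bach2, which restrains plasma cell differentiation (29.2% and 7.93%), of Ighd (39.8% and 27.7%) and of Cr2, the complement receptor (none of the 9 and 2 UMIs). The adult nuclei with an Fcrl5 UMI also held less than their share of Bach2 (6.12%) and Ighd (9.03%), but more of Cr2 (24.1%). Of Ighm they held 15.3%, against 46.2% and 29.6% in the aged libraries. They held 3 of 3 Zbtb32 UMIs, 5 of 10 of Cd80, 26.1% of Nfatc1, 28.2% of Ptpn22 and 29.5% of Cacna1e, all above their 10.8% of all UMIs. Near that share were Il5ra (1 of 9), Zfp811 (1 of 9) and Nopchap1 (3 of 21).

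**Figure D3:**
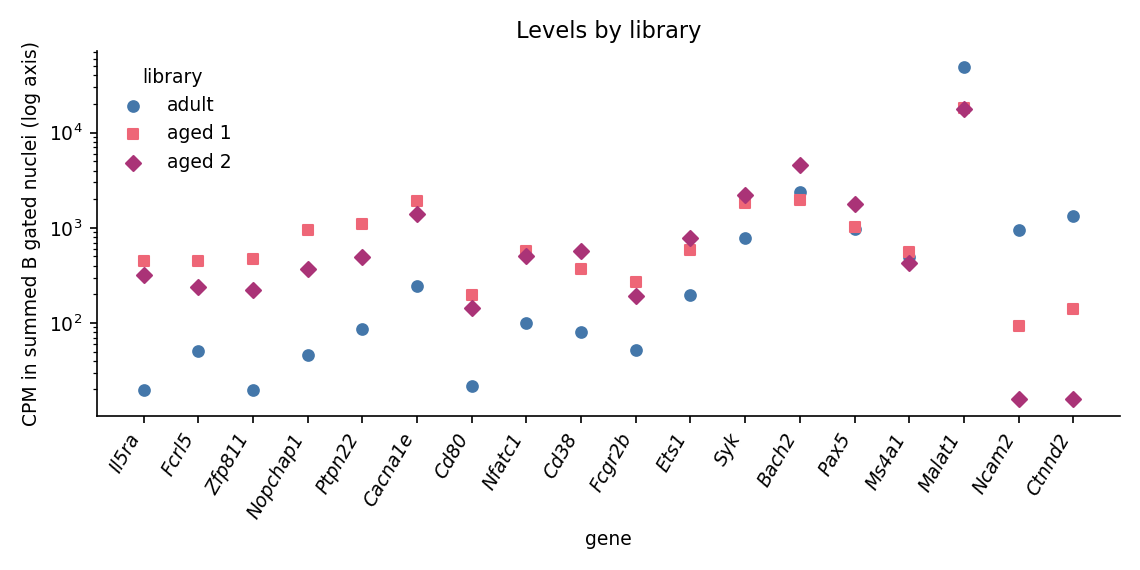
Level of 18 genes in the summed B gated nuclei of each library, in CPM on a log axis, with 1 point per library. From Il5ra to Syk both aged points lie above the adult point, at Bach2 they lie on either side of it, Pax5 and Ms4a1 are gate genes shown as a description, and from Malat1 to Ctnnd2 both aged points lie below it.

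Receptor and signalling genes had mostly positive fold changes, 15 of 16 against 52.4% (3204 of 6109) over all genes tested. Of 16 tested members of the B cell receptor signalling list, 2 rose and 0 fell, where 1.42% of all genes rose, with a median log2 fold change of 0.69 against 0.04 over all genes tested. The 2 were Fcgr2b, the inhibitory Fc receptor of B cells (52.6, 273 and 191 CPM, log2 fold change 2.04, edgeR adjusted p = 0.00983), and Syk, the kinase that binds the phosphorylated receptor (776, 1811 and 2239 CPM, 1.23, adjusted p = 0.024). Neither passed without the nuclei above 1% glial UMIs, at adjusted p = 0.47 and 0.567, where 11 of 16 members were positive with a median of 0.30. Lyn stood at 1181, 1511 and 1794 CPM and Blnk at 469, 671 and 1254 CPM, and neither passed.

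Of 19 transcription factors of the B lineage, 1 rose and 0 fell, where 1.42% of all genes rose and 5.14% fell, with a median of 0.27. The gene that rose was Ets1, which holds back plasma cell differentiation (197, 589 and 778 CPM, log2 fold change 1.62, edgeR adjusted p = 0.00703), and it did not pass without the nuclei above 1% glial UMIs (adjusted p = 0.16), where the median of the 18 tested members turned to -0.17. Ebf1 stood at 3789, 3355 and 5128 CPM and had a fold change near 0 (SE 0.33). Bach2 ran from 1942 CPM in aged 1 to 4604 CPM in aged 2, with the adult library between them at 2399 CPM.

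Genes of B-1 and age-associated B cells had the highest median among the lists with 2 or more tested members. Of 9 members 5 were tested, 4 with a positive and 1 with a negative fold change, and 1 rose (Fcrl5) and 0 fell, where 1.42% of all genes rose, with a median of 2.02. The negative one was Cd9, a tetraspanin (80, 10 and 5 UMIs, 175, 54.6 and 79.4 CPM, log2 fold change -1.61, edgeR adjusted p = 0.0808), which free RNA held at 562, 870 and 902 CPM. Without the nuclei above 1% glial UMIs the list's median was 1.61, and Fcrl5 was the 1 member to pass. Zbtb32, a transcription factor of these cells, had 3, 18 and 4 UMIs (6.57, 98.2 and 63.5 CPM, edgeR adjusted p = 0.113), and Bhlhe41, a regulator of B-1 cells, 8, 13 and 6 UMIs (adjusted p = 0.398), while neuron gated nuclei held Bhlhe41 in 15.9%, 23.8% and 28.3%. Tbx21, the factor T-bet of age-associated B cells, had 1, 7 and 2 UMIs, Cd5 2, 5 and 1, and Itgax 1, 1 and 0. These last 3 were too low to be tested, and like other genes under 20 UMIs they are given although the rule for naming genes leaves them out.

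Antigen presentation genes had positive fold changes that did not pass the test. All 9 tested MHC class II members had a positive fold change, where 52.4% of all genes did, with a median of 1.12, and none passed. With the nuclei above 1% glial UMIs left out, which were 36.1% of adult and 4.69% and 4.55% of aged nuclei, 8 of 8 were positive with a median of 0.68, against 50.1% and a median near 0 over all genes. H2-Ab1 stood at 121, 349 and 317 CPM (edgeR adjusted p = 0.0908), H2-Aa at 87.7, 256 and 143 CPM, and the invariant chain gene Cd74 at 434, 802 and 667 CPM. In the class II regulator Ciita the values were 116, 316 and 222 CPM. Of 11 homing and survival receptors 10 had a positive fold change and none passed, with a median of 0.62 (0.32 without those nuclei). Itga4, an integrin of lymphocyte entry into tissue, had 254, 611 and 730 CPM (adjusted p = 0.0618), and Itgb7, its partner, 21.9, 109 and 95.3 CPM (adjusted p = 0.0861). Of 12 interferon-inducible genes (median 0.64) and 7 cell cycle genes (median -0.40) none passed, which at 6.56% of all genes called says little about lists of this size. Among the cell cycle genes Mki67 had 24, 1 and 4 UMIs.

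**Figure D4:**
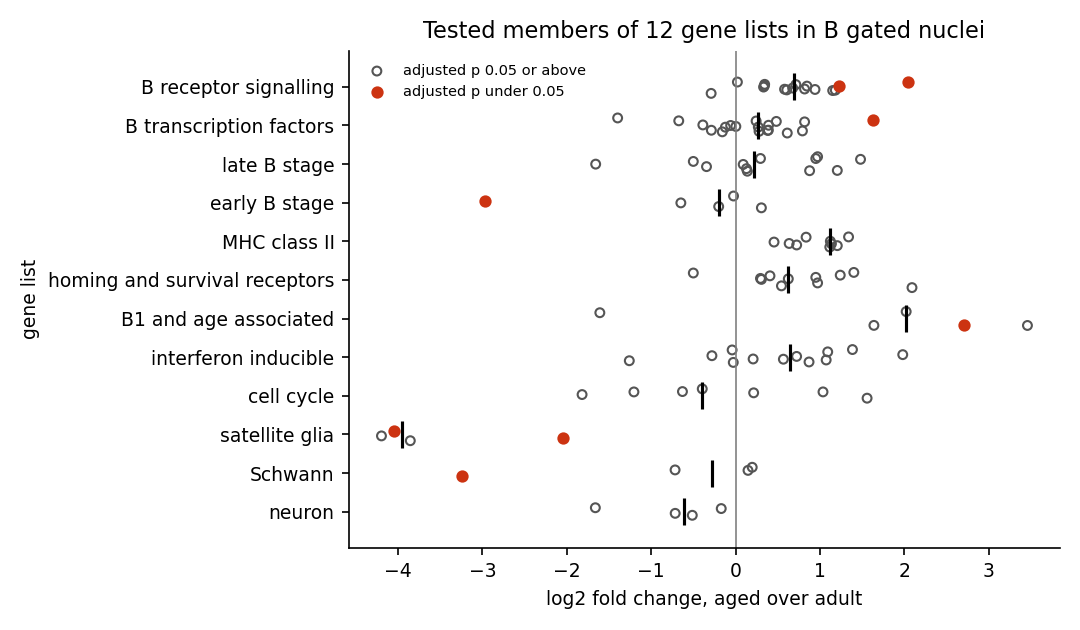
Log2 fold change of aged over adult B gated nuclei for each tested member of 12 gene lists, with filled points at an adjusted p under 0.05 and black bars at list medians. B-1 and age-associated genes have a median of 2.02 and MHC class II genes 1.12, while satellite glial genes lie at -3.95. Genes of the gate and of its ratio are left out.

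Genes of glia were frequent among those lower in aged nuclei. With the genes of the gate ratio left out, 2 of 4 tested satellite glial genes fell (median -3.95), 1 of 4 Schwann genes (median -0.29) and none of 4 neuronal genes (median -0.62), where 5.14% of all genes fell. Of the 314 lower genes 164 were more than 4-fold higher in glial than in T and macrophage gated nuclei, against 4 of the 87 higher genes and 344 of all 6109. Both sides of this ratio pool the 3 libraries. Glial nuclei numbered 5167, 1834 and 775, T gated nuclei 33, 36 and 19 and macrophage gated nuclei 74, 153 and 114. A gene lower in all aged nuclei therefore gains in the ratio, so the overlap is partly built in and is a description. Ctnnd2, a catenin of neural cells chosen after its values were seen, went from 1332 CPM to 142 and 15.9 CPM (log2 fold change -3.86, SE 0.44, edgeR adjusted p = 1.67e-14), and without the nuclei above 1% glial UMIs from 250 CPM to 29.6 and 17.7 CPM (-3.27, SE 0.69, adjusted p = 0.000393). Free RNA held Ctnnd2 at 626, 380 and 322 CPM, and the part of free RNA in this difference was not tested.

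The 10 genes named for the largest falls had no UMI in either aged library. The filter on low counts asks for a high enough count in only 1 library, so all 10 were tested through the adult library alone. A ranking by fold change favours such genes, so their falls are a description. Ptgds, a prostaglandin synthase, and the predicted gene Gm16867 had 80 adult UMIs each, at least 14.4-fold lower in the aged libraries against a floor of 3 counts over both. The others were Vmn1r30, Ranbp3l, Slc47a1, Prima1, Jag1, 2900052N01Rik, Hey2 and Angpt2, with 50 to 36 adult UMIs, and 25 of the 42 UMIs of Slc47a1 lay in 1 nucleus. Free RNA also held less of all 10 in the aged libraries, with Ptgds at 394, 66.4 and 73.9 CPM, Vmn1r30 at 107, 17.5 and 6.02 CPM and Gm16867 at 31, 2.77 and 4.52 CPM. Macrophage gated nuclei held Gm16867 at 175, 8.04 and 1.77 CPM. Of all 314 lower genes, 208 were still tested without the nuclei above 1% glial UMIs and 71 passed as lower. The 10 genes are not given one by one under that setting. Malat1, a nuclear RNA found in all cell types, fell from 4.86% of B gated UMIs to 1.83% and 1.79%, and over all kept nuclei it took 5%, 1.48% and 1.61%. Without the nuclei above 1% glial UMIs Malat1 did not pass (log2 fold change -0.84, edgeR adjusted p = 0.478). Of 14 early-stage genes 5 were tested, where 5.14% of all genes fell. Kit, the stem cell factor receptor, was the 1 to fall (53, 4 and 0 UMIs). Without the nuclei above 1% glial UMIs, 3 early-stage genes were tested and 0 passed. Kit was also held by 26.6%, 21.5% and 23.2% of neuron gated nuclei, which were deeper. After the thinning used above, 9.03%, 0% and 0% of B gated nuclei held Kit, against 8.47%, 6.2% and 4.87% of neuron gated nuclei.

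Maturation was examined with genes of early and of late stages. At least 2 UMIs of 8 early genes (Rag1, Rag2, Dntt, Vpreb1, Vpreb2, Igll1, Il7r and Lef1) were held by 12 of 155 adult nuclei (7.74%, 95% exact interval 4.06 to 13.1), 1 of 64 in aged 1 (1.56%, 0.0396 to 8.4) and 3 of 22 in aged 2 (13.6%, 2.91 to 34.9). The aged replicates lay on either side of the adult value (exact permutation p = 1.0). In neuron gated nuclei, which were deeper, the share was 3.57%, 4.39% and 4.75%, above that of B gated nuclei in aged 1. Il7r, the receptor of the pre-B growth signal, had 23, 0 and 13 UMIs, Lef1 33, 0 and 10, and Rag1, a subunit of the V(D)J recombinase, 2, 3 and 7. Rag2 had 1, 0 and 3 UMIs, Vpreb1 2, 0 and 0 and Igll1 1, 0 and 0, while Dntt and Vpreb2 had 0 in every library. The adult share thus rested mostly on Il7r and Lef1, which adult T gated nuclei held at 700 and 1056 CPM. Of the 16 nuclei with 2 or more early UMIs, 12 also held 2 or more late UMIs.

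At least 2 UMIs of 9 late genes, among them Ighd, Fcer2a, Cr2, Fcrl1 and Zfp318, were held by 61.9% (53.8 to 69.6), 78.1% (66.0 to 87.5) and 86.4% (65.1 to 97.1) of B gated nuclei, with an exact permutation p of 0.333. After thinning to 1000 UMIs the shares were 38.1%, 39.1% and 40.9%. Neuron gated nuclei reached 24.7%, 25.2% and 33.7%, and Zfp318 was in 36.6%, 39.7% and 46.9% of them, so Ighd is the cleaner marker. Ighd was in 49.7%, 67.2% and 86.4% of B gated nuclei (28.4%, 42.2% and 54.5% thinned) and in 1.12%, 0.603% and 1.12% of neuron gated nuclei. Its level was 340, 644 and 746 CPM (edgeR adjusted p = 0.28). Cr2 stood at 127, 49.1 and 31.8 CPM (adjusted p = 0.126) and Fcer2a, the low-affinity IgE receptor of follicular cells, at 85.5, 81.8 and 143 CPM.

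Immunoglobulin RNA was mainly of the IgM and IgD kind. Ighm had 334, 247 and 71 UMIs (732, 1347 and 1127 CPM, edgeR adjusted p = 0.502) and was in 73.5%, 89.1% and 95.5% of nuclei. Switched isotypes were rare, with Ighg1, Ighg2c and Ighe at 0 UMIs in every library Ighg3 at 2, 7 and 0 and Igha at 1, 13 and 5 UMIs. Ighg2b had 0, 51 and 0 UMIs and passed the age test, but 49 of the 51 lay in 1 nucleus of aged 1. Plasma cell genes were low, with Jchain at 0, 4 and 1 UMIs, Prdm1 at 3, 3 and 0, and Mzb1 at 2, 10 and 3. Igha was in 6.25% and 18.2% of aged B gated nuclei but also in 7.48% and 8.95% of aged neuron gated nuclei, and Jchain in 3.12% and 4.55% against 4.82% and 7.38%, so that Jchain was at background.

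Lambda constant genes held more light chain UMIs than the kappa gene. Igkc had 177, 89 and 23 UMIs and Iglc1, Iglc2 and Iglc3 together 312, 122 and 39, a lambda share of 63.8% (95% exact interval 59.4 to 68.1), 57.8% (50.9 to 64.6) and 62.9% (49.7 to 74.8). The adult share lay above both aged ones, whose mean was 60.4% ± 3.59 (SD, n = 2; exact permutation p = 0.667, with 0.333 the smallest possible). The share was lower outside B gated nuclei, at 44.3%, 7.32% and 5.68% of light chain UMIs in the other kept nuclei and 23.2%, 6.77% and 3.41% in free RNA. Iglc2 and Iglc3 are near-identical copies, so their separate values are uncertain, and the counting of UMIs between them is not given in the sources used here.

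Kappa and lambda constant UMIs occurred in the same nuclei. Of 155 adult nuclei 65 held both, 47 lambda alone, 18 kappa alone and 25 neither, and in aged 1 the numbers were 29, 16, 7 and 12. In aged 2 they were 9, 5, 4 and 4. Variable gene UMIs were few, with 15, 4 and 3 for kappa, 2, 0 and 0 for lambda and 4, 0 and 0 for the heavy chain.

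**Figure D5:**
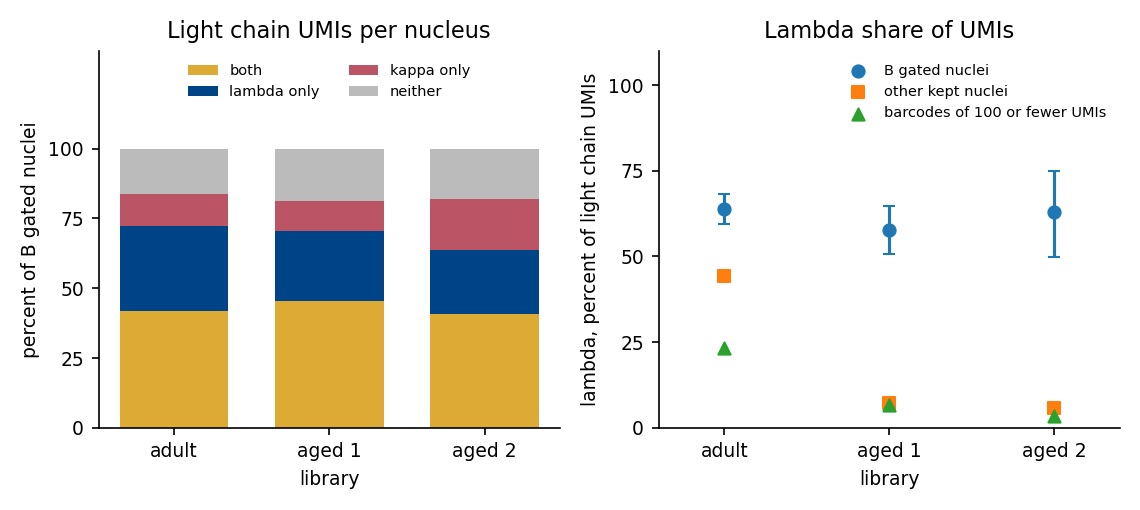
Left, percent of B gated nuclei in each library with UMIs of both light chain constant regions, of 1 kind or of neither. Right, lambda percent of light chain UMIs with 95% exact intervals for B gated nuclei, which lie between 57.8% and 63.8%, and for other nuclei and free RNA, which lie lower in each library.

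The age difference in B gated nuclei was finally compared with that in other immune nuclei, through the interaction of cell class and age. Against T gated nuclei (88 in all) 0 of 4239 genes (0%) passed by edgeR and 0 by DESeq2, with 144 and 13 at an unadjusted p under 0.05, so that no difference was detectable with these nuclei. The smallest p was that of Ikzf2, a factor of regulatory T cells (edgeR adjusted p = 0.976), followed by Fyn, Maf, Znrf3 and Slco3a1. With the nuclei above 1% glial UMIs left out, 0 of 4207 passed, with 98 at an unadjusted p under 0.05. Against macrophage gated nuclei (341 in all) 122 of 10098 genes (1.21%) passed, 29 (0.287%) with a higher and 93 (0.921%) with a lower age effect in B gated nuclei, and 0 by DESeq2, with 148 at an unadjusted p under 0.05. With the nuclei above 1% glial UMIs left out, 88 of 8115 passed, 22 higher and 66 lower. Mertk, a receptor for engulfing dead cells, went from 134 CPM to 16.4 and 15.9 CPM in B gated and from 380 CPM to 1000 and 868 CPM in macrophage gated nuclei (edgeR adjusted p = 1.21e-05, and 0.024 without the nuclei above 1% glial UMIs). Gpnmb, a glycoprotein of lipid-laden macrophages, was at 19.7, 21.8 and 0 CPM in B gated nuclei and went from 21.4 CPM to 1910 and 1797 CPM in macrophage gated ones (adjusted p = 6.85e-07, and 0.108 without those nuclei). Ebf1, outside the 5 genes of smallest p and chosen after its values were seen, had a higher age effect in B gated nuclei (edgeR adjusted p = 3.19e-05), where it did not pass by age, and went from 573 CPM to 101 and 72.5 CPM in macrophage gated nuclei.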

How the data were processed

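The authors deposited raw UMI counts per gene and barcode of 3 PIP-seq libraries, made with the Pipseeker software. Per the labels the genome was mm10, and the annotation, any use of strand and the setting for reads shared by gene copies are not given in the sources used here. Total counts were 167664164, 95647106 and 69045987 UMIs (adult, aged 1, aged 2), over 32227 genes. A library was 1 replicate. Gene positions are those of GENCODE M21 on GRCm38 (99.6% of gene identifiers matched).

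Barcodes with more than 1000 genes were kept, gated on marker UMIs, and summed per library. No doublet caller was run, and barcodes holding RNA of 2 cell types were treated only through the gate ratio and the glial share. T and macrophage gated nuclei were found by the same rule with their own genes. The sums were tested in edgeR 4.0.16 (TMM, filterByExpr, quasi-likelihood, Benjamini-Hochberg) under R 4.3.3, with DESeq2 1.42.0 as an alternative, and the script was tested on simulated data. Interaction fits held the library as a term. Intervals are 95% exact binomial and cover counting error only. Python 3.11.15 and scipy 1.17.1 were used for the rest.

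The genes named by age were, among those past the threshold with at least 20 UMIs and both aged libraries on the same side, the 10 with the largest fold change in each direction. In the interactions they were the 5 with the smallest p, and list members with 20 UMIs could be named. Leading genes were the 15 with the largest ratio at 30 or more UMIs. Exceptions are marked where they stand. The members, the lists and the tests were chosen with earlier results of these data known. Some genes are not reported here.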

Additional observations from a re-analysis of the deposited data

Results flagged for a closer look

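The age difference was not the same in B gated and macrophage gated nuclei for 122 genes, by the interaction term in edgeR. The 5 with the smallest p all had a lower age effect in B gated nuclei. On the log2 scale the difference in the age effect was -6.16 for Mamdc2, -6.83 for Gpnmb, -4.61 for Eepd1, -4.43 for Mertk and -5.22 for Sh3pxd2b. DESeq2 made 0 calls in this comparison. In 4 of these genes the B gated level was also lower in both aged libraries, Mamdc2 193 CPM against 5.45 and 15.9 CPM, Eepd1 234 CPM against 16.4 and 31.8 CPM, Mertk 134 CPM against 16.4 and 15.9 CPM and Sh3pxd2b 195 CPM against 10.9 and 0 CPM. Without the B gated nuclei above 1% glial UMIs, 88 of 8115 genes passed, and of these 5 genes Mamdc2 (-5.69, edgeR adjusted p = 0.000148) and Mertk (-3.70, adjusted p = 0.024) did, while Gpnmb (-5.57, adjusted p = 0.108), Eepd1 (-2.34, adjusted p = 0.324) and Sh3pxd2b (-3.73, adjusted p = 0.185) did not. No group had the 4 or more samples that a search for outlying libraries needs.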

How the results depend on the processing

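No paired analysis was possible because the adult and aged groups share fewer than 2 replicate numbers. The count of 401 genes by age moved to 31 with the DESeq2 Wald test, 4 with more than 2000 genes per nucleus (2617 genes tested), 113 with nuclei thinned to 1000 UMIs (2329 tested), 197 with the spread shared with T and macrophage gated sums, and, in an alternative chosen after seeing the data, 125 without nuclei of over 1% glial UMIs. Against T gated nuclei the 0 calls became 3 without a filter on low counts and 2 after thinning. Against macrophage gated nuclei the 122 became 0 with DESeq2 and 6 after thinning. The share of B gated nuclei, aged over adult, was 0.777 and reversed to 1.16 without nuclei of over 1% glial UMIs, and leaving out 1 aged library gave 0.626 to 0.927. The share of B gated nuclei with 2 or more UMIs of the early stage genes, aged minus adult, was -0.142 percentage points, and it reversed to 0.00518 with 5 or more gate UMIs, 2.33 with more than 500 genes and 1.96 after thinning, and ran from -6.18 without aged 2 to 5.89 without aged 1. The other alternatives kept the direction of the shares, with leave-one-out ranges of 16.2 to 24.4 percentage points for the share of B gated nuclei with 2 or more UMIs of the late stage genes and -5.98 to -0.9 for the lambda share of light chain constant region UMIs in B gated nuclei. Of the named and listed genes past the threshold, Ighg2b alone lost its direction, with a log2 fold change of 0 without aged 1 and 9.4 without aged 2. Of 49 such values 18 moved by more than 1 SE without aged 1 and 3 without aged 2, with Gm15228 at 2.11 against 4.61, Nopchap1 at 2.70 against 4.24 and Ptpn22 at 2.25 against 3.57. Genes that did not pass could change sign, as Bach2 did (0.67 without aged 1, -0.41 without aged 2). With 1 aged library no degree of freedom is left, so calls could not be counted there. The 22 nuclei of aged 2 limit what its values show.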

Other observations

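Genes of other blood lineages were also counted in B gated nuclei. Over 8 erythroid genes the sums were 328, 197 and 20 UMIs (719, 1075 and 317 CPM), below the 1987, 3181 and 1653 CPM of the same genes in free RNA, and none of the 4 tested passed by age. Over 5 natural killer cell genes they were 5, 0 and 0 UMIs. The plasmacytoid dendritic cell list, part of which B cells also express, had 37, 20 and 2 UMIs, and the granulocyte list 48, 14 and 4.

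Of 6 germinal centre genes 2 were tested by age and neither passed. Bcl6, the repressor that marks these cells, stood at 142, 49.1 and 79.4 CPM (edgeR adjusted p = 0.194), but it was in 28.8%, 31.9% and 35.1% of neuron gated nuclei.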
